A study of Mus musculus with 12 samples.

Results

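The genes described here encode Polycomb repressive complex 2 (PRC2) in mouse germ cells of the testis. They are the catalytic subunits Ezh2 and Ezh1, the core subunits Eed and Suz12, the Polycomb-like proteins Mtf2, Phf1 and Phf19, and the accessory subunit Jarid2. The members were chosen by gene symbol and all 8 were found among the 55487 genes of the table. RNA was sequenced from gonocytes, the male germ cells that precede spermatogonia, of Mvh-Venus transgenic mice, in which a reporter under the Mvh (Ddx4) gene marks germ cells. The 12 libraries comprised 3 each from embryonic day E13.5, embryonic day E16.5, birth (P0) and the third day after birth (P3). Titles and source names call every sample WT, whereas the genotype tag reads Morc1 (+/-) at E13.5 and P0 and Morc1 (-/-) at E16.5 and P3. Consecutive stages therefore also differ in this tag, as do P3 and E13.5, and stage and tag cannot be told apart in those comparisons. P0 with E13.5 and P3 with E16.5 share a tag.

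PRC2 methylates histone H3 on lysine 27, a mark of silenced developmental genes. Ezh2 or its paralog Ezh1 supplies the methyltransferase, Eed binds the methyl mark and stimulates the enzyme, and Suz12 is the scaffold on which the complex is built. Polycomb-like proteins and Jarid2 belong to alternative forms of the complex and help bring it to chromatin. Ezh2 is typical of dividing cells and Ezh1 of cells that have left the cycle. Male germ cells of the mouse stop dividing in the fetal testis and resume soon after birth.

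The table holds size-factor-scaled read counts, called normalized counts here. Reads assigned to genes numbered 40946616 to 51533747 per library, and every PRC2 gene passed the minimum of 10 normalized counts in 3 libraries, as did 22384 genes in all. Libraries are named by stage and by the number 1, 3 or 4 in the column heads. The labels do not say whether samples of a stage came from separate animals, so p-values measure the spread between these libraries, which may be technical. Morc1 itself ranged from 1621 to 1830 normalized counts at E13.5 but 28328 to 32917 at E16.5, then 7280 to 7708 at P0 and 10584 to 11129 at P3, so the stages tagged Morc1 (-/-) did not have the lowest counts. The germ cell markers Ddx4, Dazl, Mael and Dnd1 were read in every library and summed to 126457 to 134065 at P0 and to at least 216441 in every library of the other stages. Not each of them was lowest at P0: Dazl averaged 59234 there against 35953 at E16.5, and Mael 44978 against 14374 at E13.5. All these are values of the deposited scaling, whose size factors averaged 1.94 at P0 against 0.939, 1.13 and 1.01 at E13.5, E16.5 and P3. Reads in genes at P0 numbered 43592337 to 47744848, within the range of the other stages, so the low sums at P0 depend on the scaling. Summed over their marker lists, Sertoli genes ran from 708 to 1235 at E13.5 and from 2375 to 4145 at P0, and peritubular genes from 81.3 to 101 and from 2212 to 2341. The 4 mast cell genes were at 0 at E13.5 and summed to 1178 to 2698 at P0. Leydig cell genes summed to 571 to 723 at E13.5 and varied most within a stage at E16.5 (608 to 7681) and P0 (1078 to 6106), falling to 179 to 267 at P3, where Insl3 was at 0. E16.5 library 4 had the 7681. Red blood cell genes summed highest at E16.5 and P0 (1522 to 2388, against at most 512). The summed macrophage and endothelial genes each followed 1 gene, Cd68, which averaged 938 at E16.5 and at most 262 elsewhere, and Pecam1, which averaged 4618 at E13.5 and at most 515 elsewhere. The other macrophage genes, Adgre1 and Csf1r, rose between E13.5 and E16.5 and were not called from there to P0, and the other endothelial genes, Cdh5 and Kdr, were lowest at E13.5. Bulk RNA cannot tell fewer cells of a type from less RNA per cell, and the part of other cell types in the results was not tested.

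Upstream sequences are shown for Ezh2 and Ezh1, whose counts moved in opposite directions after E13.5, and for Suz12 and Phf19, which had patterns like that of Ezh2. They come from RefSeq (GRCm38.p6), are written 5′ to 3′ on the gene's strand, and lie within the 250 bases before the RefSeq start. Each is the longest stretch there outside the gene's own exons and outside any untranslated region annotated in GENCODE M21. They cover chr6:47595059-47595183 (− strand), chr11:101226464-101226713 (− strand), chr11:79992856-79993105 (+ strand) and chr2:34914027-34914226 (− strand). Capitals mark matches on either strand to short words common in promoters of cell-cycle genes: TTTCCCGC (an E2F word), TTTGAA (the CHR element, shown as its reverse complement TTCAAA) and CCAAT (reverse complement ATTGG).
Ezh2: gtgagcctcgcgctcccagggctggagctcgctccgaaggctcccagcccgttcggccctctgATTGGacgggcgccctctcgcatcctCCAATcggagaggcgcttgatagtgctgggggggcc
Ezh1: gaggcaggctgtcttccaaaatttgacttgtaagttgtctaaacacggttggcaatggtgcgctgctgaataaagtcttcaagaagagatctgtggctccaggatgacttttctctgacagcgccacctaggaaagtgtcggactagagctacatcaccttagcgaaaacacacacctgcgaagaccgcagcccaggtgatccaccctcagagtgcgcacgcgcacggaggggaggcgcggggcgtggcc
Suz12: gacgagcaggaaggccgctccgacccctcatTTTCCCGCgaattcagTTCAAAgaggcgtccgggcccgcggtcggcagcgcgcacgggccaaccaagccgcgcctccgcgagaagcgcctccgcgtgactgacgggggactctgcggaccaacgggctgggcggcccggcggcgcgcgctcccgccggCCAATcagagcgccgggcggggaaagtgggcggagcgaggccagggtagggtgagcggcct
Phf19: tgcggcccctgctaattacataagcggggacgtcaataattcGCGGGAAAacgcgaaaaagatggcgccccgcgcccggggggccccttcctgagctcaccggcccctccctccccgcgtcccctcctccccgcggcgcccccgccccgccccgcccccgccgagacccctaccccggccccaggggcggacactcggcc
Suz12 held 1 match to each of the 3 words, and Phf19 held the reverse complement of TTTCCCGC, 208 to 201 bases before its start. Within 250 bases Ezh2 held 3 CCAAT matches, 2 of them in the stretch shown, and Ezh1 held none of the words. Among 32851 mouse promoter windows of the same length, 0.895% held TTTCCCGC, 16% TTTGAA and 33.8% CCAAT. The E2F words TTTGGCGC and TTTCGCGC, held by 0.417% and 0.256% of the windows, were in none of the PRC2 windows. Eed held TTTGAA in both orientations, Jarid2 held CCAAT in 1 of its 2 windows, the second of 2 Mtf2 windows held TTTGAA and CCAAT, and Phf1 held no match.

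Ezh2 and Ezh1 exchanged rank between E13.5 and E16.5. Ezh2 (chr6:47530139-47595341, − strand) had 7135, 6740 and 7066 normalized counts in E13.5 libraries 1, 3 and 4, and 1430, 1763 and 1702 at E16.5. It had 1744, 1929 and 1616 at P0 and 2592, 2445 and 2266 at P3. Counts were highest in the E13.5 libraries, E16.5 and P0 overlapped, and P3 lay between them and E13.5. Mean counts were 6980 ± 211 (SD, n = 3) at E13.5 and 1632 ± 177 at E16.5, a 4.28-fold difference. On the log2(normalized count + 1) scale, used for all fold changes below, Ezh2 fell by 2.101 (SE 0.0904, adjusted p 1.73e-12, limma with Benjamini-Hochberg adjustment over all genes tested). At P0 it had not returned: the log2 fold change against E13.5 was -1.99 (adjusted p 2.10e-12, limma), within 1 genotype tag. For P3 against E13.5 it was -1.52 (adjusted p 1.89e-10). The order of the later stages depended on the scaling. At P0 against E16.5 the log2 fold change of Ezh2 was called in 3 of 5 scalings, with 0.78 for equal library totals (adjusted p 2.29e-06), and at P3 against P0 equal totals gave -0.37 (adjusted p 0.00160). Against E13.5, equal totals gave -0.82 at P0.

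Ezh1 (chr11:101191115-101226463, − strand) had the opposite course at E16.5. Its normalized counts were 4578, 4302 and 4340 at E13.5 and 13039, 13590 and 11145 at E16.5. After birth they read 5562, 4875 and 4823 (P0) and 7634, 7840 and 9069 (P3). No 2 stages overlapped, and with the deposited scaling P0 was close to E13.5. From E13.5 to E16.5 Ezh1 rose 2.86-fold (log2 fold change 1.51, SE 0.0879, adjusted p 8.08e-11, limma) and fell at P0 (log2 fold change -1.31, adjusted p 1.63e-09). The difference of P0 from E13.5 (log2 fold change 0.20, adjusted p 0.0390) lost its call when E13.5 library 3 or 4 or P0 library 1 was left out, with adjusted p from 0.0893 to 0.177. It depended on the scaling: with equal library totals the log2 fold change was 1.37 (adjusted p 6.30e-11).

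Since each gene's level depends on the scaling of its library, pairs of subunits were also compared within libraries, where the scaling cancels. Ezh2 counts were 1.56 to 1.63 times those of Ezh1 in the E13.5 libraries and 0.110 to 0.153 times at E16.5. The log2 ratio of Ezh2 to Ezh1 averaged 0.66 ± 0.0344 (SD, n = 3) at E13.5 but -2.95 ± 0.239 at E16.5, then -1.53 ± 0.172 at P0 and -1.75 ± 0.228 at P3. The ratio thus dropped 12.2-fold from E13.5 to E16.5, and P0 and P3 lay between, overlapping each other. The ratio differed among stages (exact permutation test of F over 15400 assignments of libraries, p = 0.000260, adjusted over 6 ratios p = 0.000312). Between 2 stages of 3 libraries the smallest exact two-sided p is 0.1, which separated stages reached, while P3 against P0 gave p = 0.4.

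Per kilobase of exon, which allows different genes to be compared, Ezh2 made up 63.8% ± 0.549 (SD, n = 3) of the summed Ezh2 and Ezh1 level at E13.5. Its share was 12.7% ± 1.83 at E16.5, then 27.9% ± 2.43 at P0 and 25.0% ± 2.92 at P3. Ezh2 was therefore the more abundant methyltransferase transcript at E13.5, and Ezh1 was the more abundant in each library of the other stages. With the deposited scaling the summed level of the pair was 1638 ± 48.2 normalized counts per kilobase at E13.5 but 1937 ± 171 at E16.5, then 948 ± 59.4 at P0 and 1464 ± 81.6 at P3, a narrower range than that of the share. Unlike the share, the sum depends on the scaling. With equal library totals the log2 fold changes at P0 against E13.5 were -0.82 for Ezh2 and 1.37 for Ezh1.

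The core subunits Eed and Suz12, which bind each other in the complex, also parted. Suz12 (chr11:79993106-80034123, + strand) had 4934, 4643 and 4184 normalized counts at E13.5 and 702, 729 and 866 at E16.5. It had 983, 1206 and 1048 at P0 and 2191, 2533 and 2608 at P3, so that no 2 stages overlapped. Suz12 fell 5.99-fold at E16.5 (log2 fold change -2.58, SE 0.105, adjusted p 8.74e-13, limma). It rose from E16.5 to P0 (log2 fold change 0.50, adjusted p 0.000650) and again from P0 to P3 (log2 fold change 1.18 against P0, adjusted p 2.62e-08). These directions were the same under each of 5 library scalings.

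Eed (chr7:89954654-89980983, − strand) was among the most abundant PRC2 transcripts throughout. Its normalized counts were 12662, 11577 and 11892 at E13.5, 18855, 17037 and 16462 at E16.5, 9478, 8869 and 8132 at P0, and 10143, 10073 and 9148 at P3. E16.5 was the highest stage, and P0 and P3 overlapped. Eed rose from E13.5 to E16.5 (log2 fold change 0.53, SE 0.0759, adjusted p 6.25e-06, limma) and then fell to P0 (log2 fold change -0.98, adjusted p 8.89e-09). Its differences of P0 and P3 from E13.5, -0.45 and -0.30 on the log2 scale, reversed to 0.72 and 0.03 with equal library totals.

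Within libraries the log2 ratio of Suz12 to Eed averaged -1.40 ± 0.0992 (SD, n = 3) at E13.5 but -4.51 ± 0.250 at E16.5, then -3.03 ± 0.207 at P0 and -2.004 ± 0.201 at P3. The ratio dropped 8.68-fold from E13.5 to E16.5, and the stages were separate from each other (exact permutation test, adjusted p = 0.000130). Ezh2 to Eed followed the same order of stages, from -0.79 at E13.5 to -3.42 at E16.5 and back to -2.32 at P0 and -2.01 at P3 (exact permutation test, adjusted p = 0.000130). For both ratios the unadjusted p was the smallest the assignments allow, 6.49e-05.

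**Figure D1:**
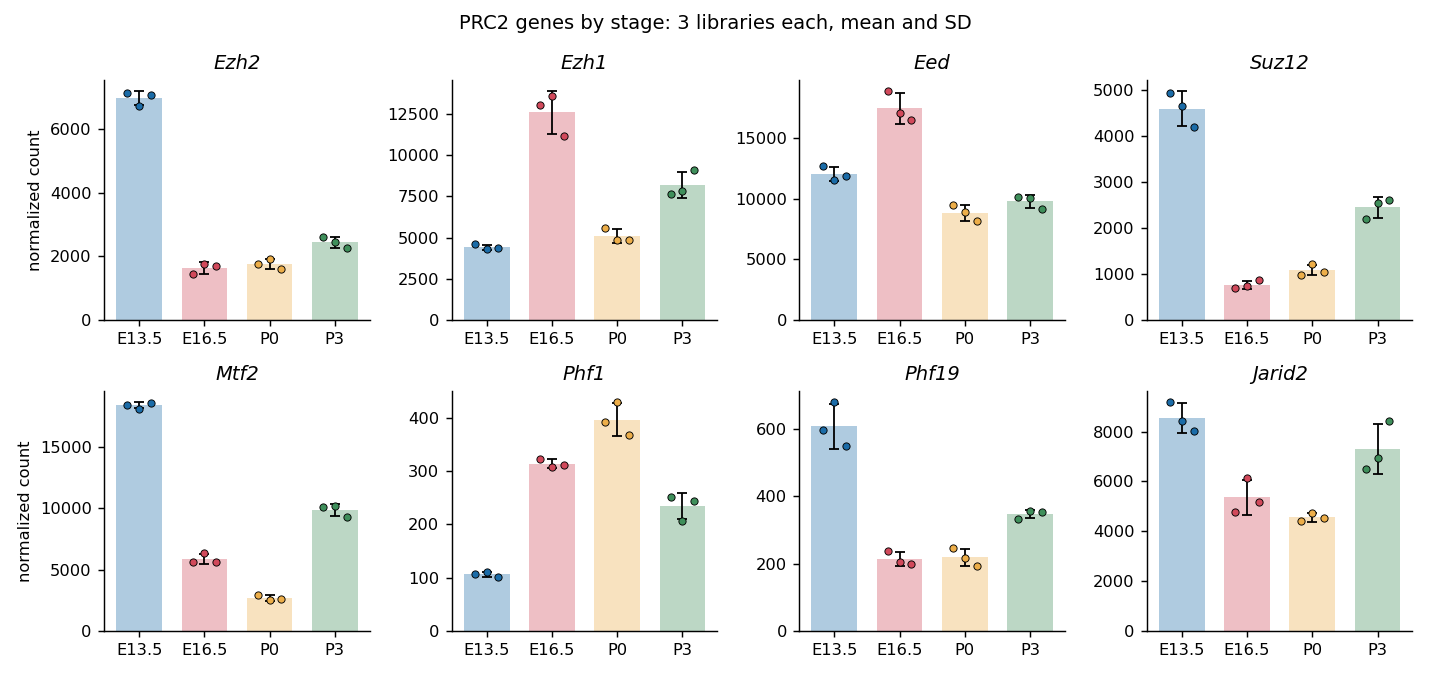
Normalized count (vertical axis, from 0, a scale of its own in each panel) of the 8 PRC2 genes at E13.5, E16.5, P0 and P3. Points are the 3 libraries of a stage, bars their mean and lines the SD. With the deposited scaling shown, Ezh2, Suz12, Mtf2, Phf19 and Jarid2 were highest at E13.5, Ezh1 and Eed at E16.5, and Phf1 at P0.

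**Figure D2:**
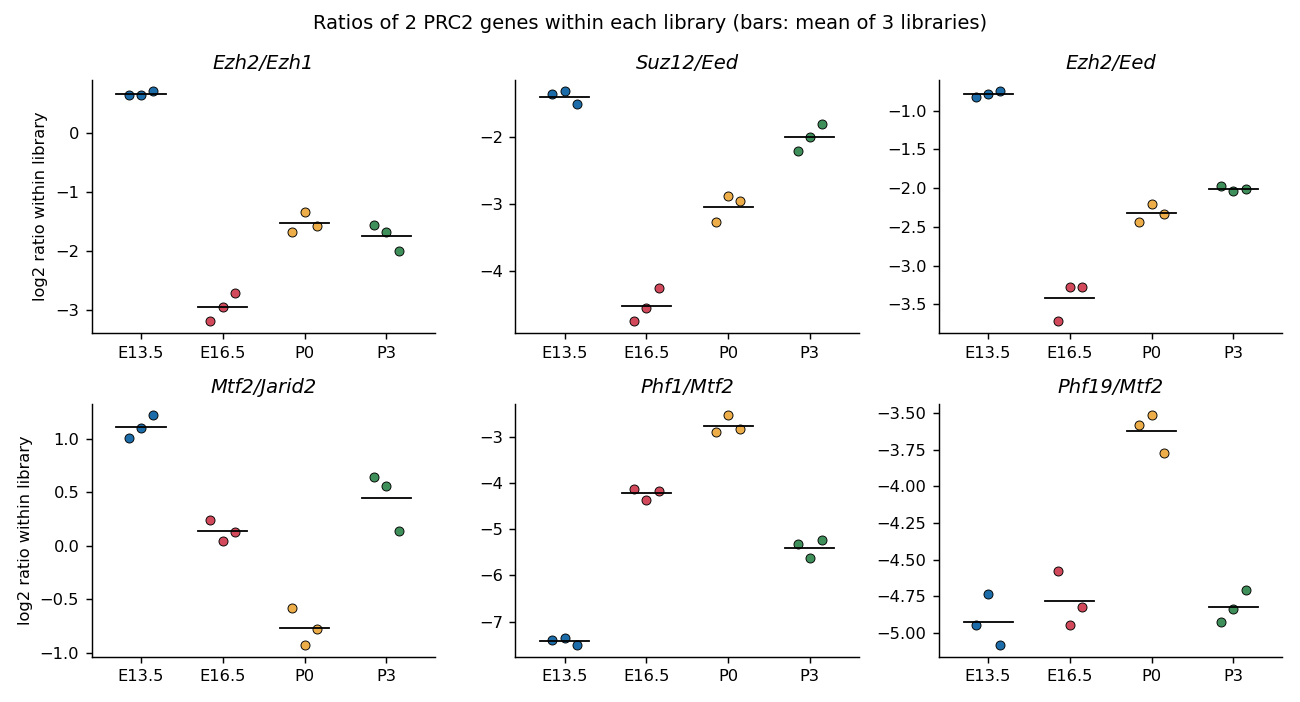
Log2 ratio of 2 PRC2 genes within each library (vertical axis, a range of its own in each panel) by stage. Points are libraries and horizontal bars the mean of 3; the Ezh2 to Ezh1 ratio went from 0.66 at E13.5 to -2.95 at E16.5, and the Phf19 to Mtf2 ratio stood apart at P0.

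The 3 Polycomb-like genes, whose proteins bind DNA and the H3 tail and can each occupy the same place in the complex, had 3 different patterns. Mtf2 (chr5:108065674-108109004, + strand) was the most abundant. It had 18447, 18157 and 18648 normalized counts at E13.5, 5644, 6363 and 5656 at E16.5, 2937, 2489 and 2639 at P0, and 10123, 10221 and 9285 at P3. Every stage was separate, with the lowest counts at P0. Between E13.5 and P0 Mtf2 fell 6.85-fold (log2 fold change -2.78, SE 0.0747, adjusted p 4.32e-15, limma) and was 3.67-fold higher at P3 than at P0 (log2 fold change 1.88, adjusted p 1.17e-12). With equal library totals these log2 fold changes were -1.61 and 1.04. No other PRC2 gene had a larger log2 fold change at P3 against P0.

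Phf19 (chr2:34893757-34914026, − strand) had 596, 679 and 548 normalized counts at E13.5 and 236, 205 and 199 at E16.5. It had 245, 217 and 193 at P0 and 332, 356 and 354 at P3. E16.5 and P0 overlapped, and both were below P3 and E13.5. Phf19 fell 2.85-fold at E16.5 (log2 fold change -1.50, SE 0.135, adjusted p 2.36e-08, limma). Its log2 fold change at P0 against E16.5 was 0.03 (adjusted p 0.867), with no stable sign.

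Phf1 (chr17:26933052-26937908, + strand) was the least abundant PRC2 gene at E13.5 and, with the deposited scaling, the only one highest at P0. With equal library totals Jarid2 was also highest at P0, with a log2 fold change of 0.26 against E13.5. Normalized counts of Phf1 were 108, 110 and 101 at E13.5, 323, 308 and 312 at E16.5, 393, 430 and 369 at P0, and 251, 206 and 245 at P3. No 2 stages overlapped. From E13.5 to E16.5 Phf1 rose 2.96-fold (log2 fold change 1.56, SE 0.137, adjusted p 1.83e-08, limma), and it fell from P0 to P3 (log2 fold change -0.76, adjusted p 8.98e-05). The rise from E16.5 to P0 (log2 fold change 0.33, adjusted p 0.0447) lost its call in each of the fits that left out 1 library of either stage, with adjusted p from 0.0503 to 0.158. Phf1 shares 1370 exon bases, 39.3% of its own, with Cuta on the opposite strand, and the strand setting of the counting is not given in the sources used here, so reads of the shared part cannot be assigned with certainty. Cuta had means of 4374 ± 242, 3117 ± 356, 1853 ± 93.0 and 2517 ± 292 (SD, n = 3) at E13.5, E16.5, P0 and P3. Cuta was thus highest where Phf1 was lowest, at E13.5, and lowest where Phf1 was highest, at P0, but both were higher at E16.5 than at P3.

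The log2 ratio of Phf1 to Mtf2 averaged -7.43 at E13.5 but -4.22 at E16.5, then -2.75 at P0 and -5.40 at P3 (exact permutation test, adjusted p = 0.000130). It was 25.5-fold higher at P0 than at E13.5. Phf19 to Mtf2 was nearly level at the other stages, -4.93 at E13.5 and -4.78 at E16.5 and -4.83 at P3, all of which overlapped, and was -3.62 at P0 (exact permutation test over the 4 stages, adjusted p = 0.0101). Mtf2 made up 95.5% ± 0.464 (SD, n = 3) of the summed level per kilobase of the 3 genes at E13.5 but 88.6% ± 0.998 at E16.5, then 74.9% ± 2.19 at P0 and 92.7% ± 0.604 at P3. Mtf2 thus remained the main Polycomb-like transcript in each library, with its smallest share at P0.

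Jarid2 (chr13:44729474-44921643, + strand) defines a form of PRC2 without Polycomb-like proteins and varied least among the members by the F statistic. It had 9177, 8438 and 8011 normalized counts at E13.5, 4784, 6156 and 5154 at E16.5, 4396, 4738 and 4532 at P0, and 6496, 6949 and 8439 at P3. E13.5 and P3 overlapped, and E16.5 and P0 lay close together below them. Jarid2 fell at E16.5 (log2 fold change -0.68, SE 0.101, adjusted p 1.11e-05, limma), but with equal library totals the value was -0.17 (adjusted p 0.153). Its log2 fold change at P3 against E13.5, -0.23, was at the threshold (adjusted p 0.0486) and was not called without E13.5 library 1 or 3 or without P3 library 1 or 3 (adjusted p 0.0817 to 0.22). Of 5 scalings only the deposited one called it, and it was also lost with a pseudocount of 0.1, with no filter, in a fit of the 2 stages, and without E16.5 library 4 or any 1 P0 library. The log2 ratio of Mtf2 to Jarid2 averaged 1.11 at E13.5 but 0.14 at E16.5, then -0.76 at P0 and 0.44 at P3 (exact permutation test, adjusted p = 0.000195). Per kilobase, Mtf2 exceeded Jarid2 by 3.69 ± 0.271 times (SD, n = 3) at E13.5 and was level with it at P0, at 1.01 ± 0.123 times.

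Ordered by normalized counts per kilobase of exon, the complex had a different profile at each stage. At E13.5 Mtf2 (3232) and Eed (3146) led and overlapped, followed by Ezh2 (1045), Suz12 (928) and Jarid2 (879), the last pair overlapping, then Ezh1 (592), Phf19 (121) and Phf1 (30.5). At E16.5 Eed (4559) was followed by Ezh1 (1692), Mtf2 (1033), Jarid2 (552), Ezh2 (244), Suz12 (155), Phf1 (90.2) and Phf19 (42.3), with no overlap between neighbours. At P0 the order was Eed (2306), Ezh1 (684), Mtf2 (472) level with Jarid2 (469), Ezh2 (264) overlapping Suz12 (218), Phf1 (114) and Phf19 (43.3). The P3 order was Eed (2557), Mtf2 (1733), Ezh1 (1100), Jarid2 (751), Suz12 (494), Ezh2 (365), and Phf19 (68.9) level with Phf1 (67.1). Ezh1 moved from the sixth place at E13.5 to the second at E16.5, and Eed held the first or shared first place throughout.

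All 8 genes differed among the 4 stages in limma's F-test, with adjusted p from 1.95e-14 for Mtf2 to 7.27e-07 for Jarid2, but so did 95.2% of all genes tested. At E16.5 against E13.5, 3 members were higher and 5 lower, beside 45.5% and 34.6% of all genes. Their median log2 fold change was -1.09, against 0.31 for all genes. At P0 against E16.5, 2 were higher and 3 lower (background 27.6% and 33.4%), with a median of -0.10 against -0.01. At P3 against P0, 6 were higher and 1, Phf1, was lower (background 40.1% and 36.4%), with a median of 0.67 against 0.05.

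The comparisons that skip a stage gave 2 higher and 6 lower members at P0 against E13.5 (background 45.7% and 40.5%), with a median log2 fold change of -1.19 against 0.20 for all genes. At P3 against E16.5, 5 members were higher and 3, Ezh1, Eed and Phf1, were lower (background 34.2% and 35.2%), with a median of 0.51 against -0.05. At P3 against E13.5, Ezh1 and Phf1 were higher and the other 6 lower (background 39.2% and 31.2%), with a median of -0.55 against 0.16. Comparisons that share a stage share its 3 libraries. With so many genes called in each, the counts alone do not set the members apart from other genes.

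How the libraries were scaled mattered most for comparisons with P0, whose size factors averaged 1.94 ± 0.118 (SD, n = 3) against 0.939 ± 0.0175 at E13.5, 1.13 ± 0.117 at E16.5 and 1.01 ± 0.0225 at P3. Setting library totals equal in place of the deposited scaling shifted the all-gene median log2 fold change by 0.53 for E16.5 against E13.5, by 0.69 at P0 against E16.5, by -0.91 at P3 against P0 and by 1.31 at P0 against E13.5, the largest of the 6 comparisons. With equal totals the members called at P3 against P0 were 2 higher and 3 lower (19.7% and 58.4% of all genes tested under that scaling). At P0 against E16.5 they were 5 higher and 3 lower (54.9% and 14.8%), and at P0 against E13.5 they were 4 each way (66.2% and 19.6%). At P3 against P0 the median-of-ratios factors gave 4 higher and 2 lower. At E16.5 against E13.5 each member kept its direction under each of the 5 scalings. Taken relative to the median of all genes, the log2 fold changes there were -2.41 for Ezh2, -2.89 for Suz12, -1.96 for Mtf2, -1.81 for Phf19, -0.99 for Jarid2, 1.20 for Ezh1, 1.25 for Phf1 and 0.22 for Eed.

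**Figure D3:**
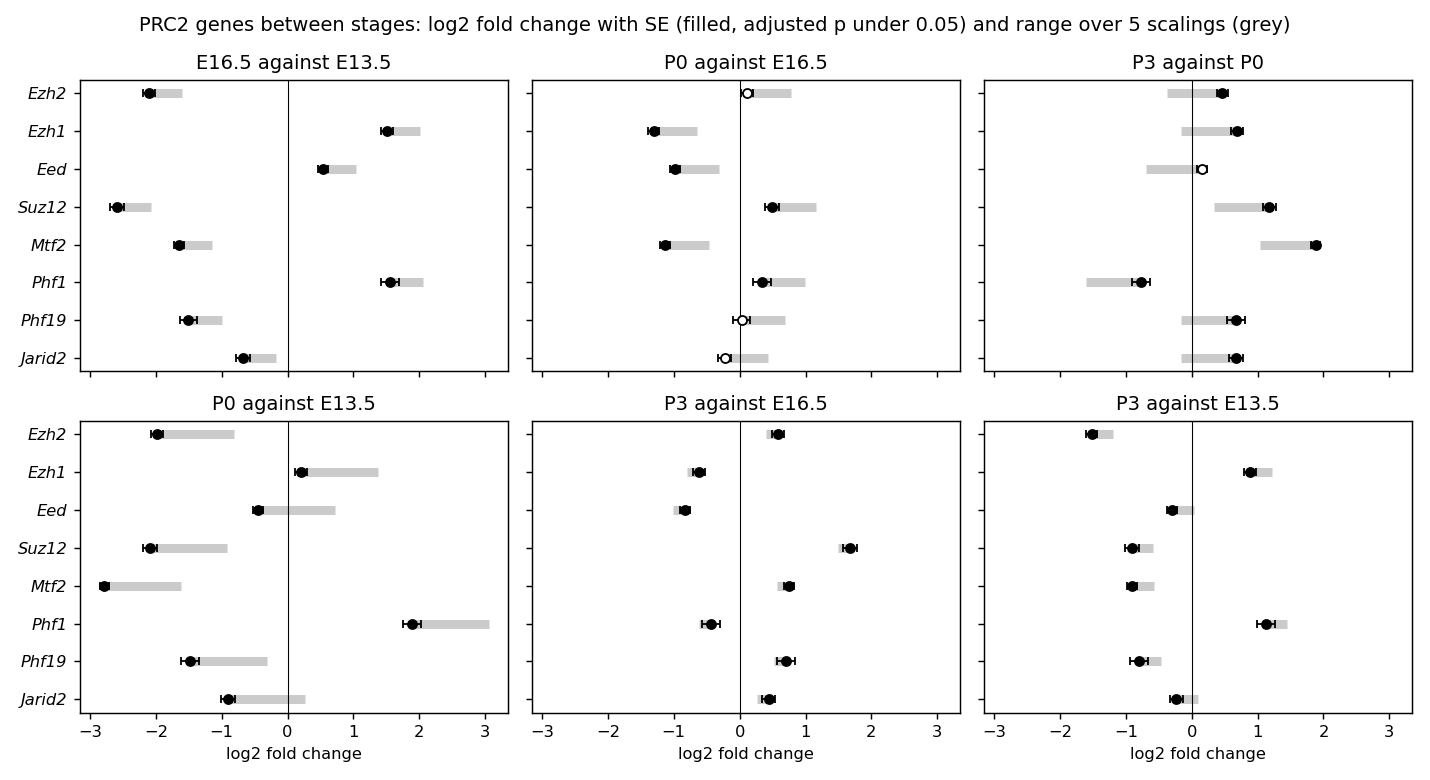
Log2 fold change (horizontal axis) of the 8 PRC2 genes in the 6 comparisons of stages. Circles are limma estimates with SE, filled where the adjusted p was under 0.05, and grey bars span 5 library scalings; at P3 against P0 the bars of Ezh2, Ezh1, Eed, Phf19 and Jarid2 cross 0, and at E16.5 against E13.5 none does.

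Of the partners of PRC2, Rbbp4 and Rbbp7 encode the histone chaperones that join Suz12 in the core complex. Rbbp4 averaged 46814 normalized counts at E13.5 but 9921 at E16.5, then 8781 at P0 and 31072 at P3. It fell at E16.5 (log2 fold change -2.26, SE 0.125, adjusted p 3.99e-11, limma) and was higher at P3 than at P0 (log2 fold change 1.82). Rbbp7 averaged 56263, 23678, 11480 and 33270, with log2 fold changes of -1.25, -1.05 and 1.54 between consecutive stages, all called. Both are less certain than the members other than Phf1, since 17.2% and 11.2% of their 50-base exon words occur in other genes. Among the members that share was 28.3% for Phf1 and at most 5.82%, in Eed, for the others.

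Among accessory factors, Aebp2, which joins Jarid2 in its form of the complex, averaged 1042 normalized counts at E13.5 but 615 at E16.5, then 414 at P0 and 841 at P3. Epop, found with Polycomb-like proteins, fell from 807 to 182 between E13.5 and E16.5 (log2 fold change -2.14, adjusted p 6.89e-11, limma) and was highest at P3, at 1531. Lcor and Lcorl, whose loci also encode the PALI proteins that are alternatives to Epop, rose from E13.5 to E16.5, by 1.14 and 1.10 on the log2 scale. Epop and the pair Lcor and Lcorl therefore moved in opposite directions at that step under each of 5 scalings. Ezhip, an inhibitor of the enzyme known from germ cells and listed under its earlier symbol AU022751, averaged 3050 at E13.5 and 3137 at E16.5, then 1920 at P0 and 1568 at P3. Its log2 fold change at E16.5 was 0.04 (adjusted p 0.668, limma), but 0.545 with equal library totals. At P0 against E16.5 it was -0.71 with the deposited scaling and -0.047 with equal totals.

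Kdm6a and Kdm6b encode demethylases that remove the mark, and the Y-linked Uty of the same family was listed with them. Kdm6a fell from 995 normalized counts at E13.5 to 413 by E16.5, a log2 fold change of -1.28 (adjusted p 1.29e-06, limma) and averaged 355 at P0 and 363 at P3. Kdm6b averaged 185, 186, 265 and 261 over the 4 stages, and at P0 against E16.5 its log2 fold change was 0.50 (adjusted p 0.0209). Uty averaged 1032, 798, 418 and 639, and its difference of E16.5 from E13.5 (log2 fold change -0.39) changed sign with equal library totals. Of the 10 partners and demethylase-family genes tested, 2 were higher and 6 lower for E16.5 against E13.5. For P0 against E16.5 the counts were 2 and 5, and for P3 against P0 they were 6 and 2. Of all genes, 45.5% and 34.6%, 27.6% and 33.4%, and 40.1% and 36.4% were called in these directions. With equal totals the counts were 4 and 5, 5 and 1, and 3 and 5, against 55.6% and 23.7%, 54.9% and 14.8%, and 19.7% and 58.4% of all genes.

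**Figure D4:**
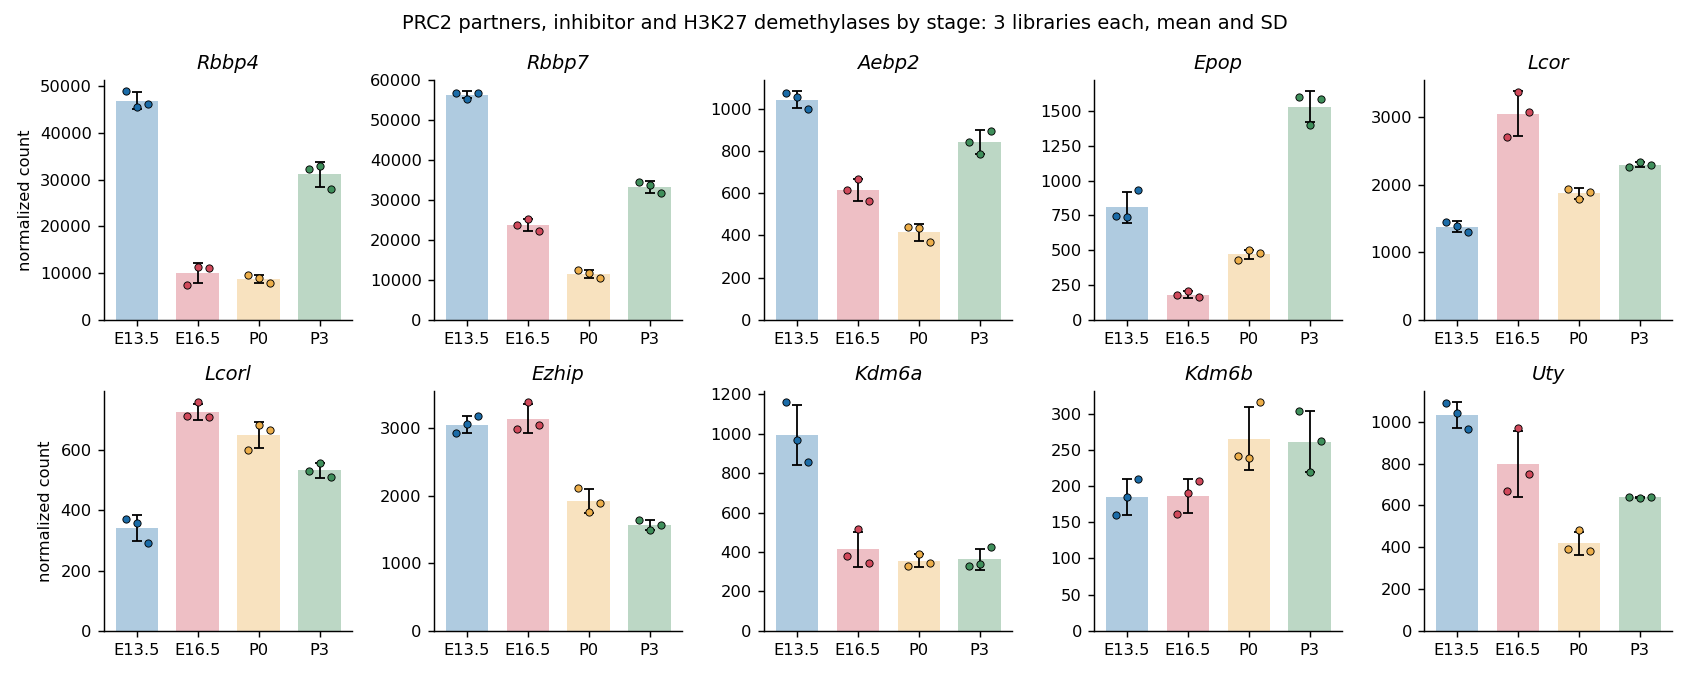
Normalized count (vertical axis, from 0, a scale of its own in each panel) of 10 PRC2 partners and genes of the H3K27 demethylase family by stage. Points are the 3 libraries, bars their mean and lines the SD; Rbbp4, Rbbp7 and Epop had their steepest fall at E16.5, where Lcor and Lcorl were highest.

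Genes of cell division moved together from E13.5 to E16.5 and from P0 to P3. Of 15 proliferation genes 14 were tested, Rrm2 being listed at 0 in every library. All 14 fell from E13.5 to E16.5, with a median log2 fold change of -2.45, and all 14 were higher at P3 than at P0, with a median of 3.12. Both counts were the same under each of 5 scalings, and 34.6% and 40.1% of all genes were called in these directions. At P0 against E16.5, 0 were higher and 12 lower (27.6% and 33.4% of all genes). With equal library totals 4 were higher and 8 lower there (54.9% and 14.8%). At P3 against E16.5, 13 were higher and 1, Bub1, was lower (34.2% and 35.2%). Mki67, which marks cycling cells, averaged 1682 ± 159 normalized counts (SD, n = 3) at E13.5 but 162 ± 49.4 at E16.5, then 203 ± 21.5 at P0 and 2086 ± 255 at P3. Ezh2 also fell at E16.5, and its means were 2435 at P3 and 6980 at E13.5. The part of cell division in the values of the members was not tested.

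Developmental genes known as PRC2 targets in embryonic stem cells were read at low levels. Their 17 counts summed to 1440 to 1617 per library at E13.5 and 1617 to 1982 at E16.5, then 2413 to 2763 at P0 and 2065 to 2373 at P3. Of 16 tested, 11 were higher and 1, Cdkn2b, was lower at P0 against E16.5, and 2 were higher and 11 lower at P3 against P0. With equal library totals, under which Cdkn2b changed sign, those counts were 14 and 0, and 0 and 14, while the shares of all genes were 54.9% higher and 14.8% lower at P0 against E16.5, and 19.7% and 58.4% at P3 against P0. With the deposited scaling the shares were 27.6% and 33.4%, and 40.1% and 36.4%. Cdx2, Hand1, Neurog2 and Hoxa11 would not have met the minimum count for testing without their P0 libraries. They averaged 2.48 to 6.28 normalized counts at E16.5 and 0.323 to 4.02 at P3. Their higher level at P0 was thus partly set by the filter, and its part in the counts beside all genes was not tested. Pax6, a regulator of eye and brain, averaged 500 normalized counts at E13.5 but 16.55 at E16.5, then 224 at P0 and 11.5 at P3. The regulator of endoderm Sox17 averaged 24.2, 203 and 8.49 at E16.5, P0 and P3, and Hoxa11 averaged 2.48, 86.3 and 0.323. The mesoderm gene T differed from these, with 58.9 at E13.5 but 651 at E16.5, then 603 at P0 and 511 at P3. So did others with the deposited scaling. Lhx2 rose at each stage, with 84.2, 177, 423 and 940, Cdkn2a was highest at P3, at 125, and Foxa2 averaged 95.3 at P0 and 87.9 at P3. The higher levels of many targets at P0 came in the libraries in which Sertoli, peritubular and mast cell genes were also highest, and the part of those cells in them was not tested.

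Across the 12 libraries, Ezh2, Suz12 and Phf19 had like patterns. Pearson's r of log2(normalized count + 1) was 0.917 for Ezh2 and Suz12, 0.948 for Ezh2 and Phf19, and 0.953 for Suz12 and Phf19. Mtf2 went with Jarid2 (r = 0.925). Both also went with Ezh2, Suz12 and Phf19, with r from 0.819 (Ezh2 and Jarid2) to 0.889 (Mtf2 and Phf19). Phf1 ran opposite to all of these (r = -0.958 with Ezh2, -0.937 with Mtf2 and -0.877 with Jarid2). Ezh2 and Ezh1 had an r of -0.634. These values describe 12 points in 4 stages that share scaling and stage, and they carry no test.

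Patterns were compared among 12093 tested genes that averaged 100 normalized counts or more. Genes without a symbol, or with a predicted-gene, clone or pseudogene name, had been left out beforehand. The patterns most like a member's belonged to genes of varied kinds. The highest Pearson's r was 0.995 for Ezh2 with Eif2a, a translation factor, followed by Etnk1 and Commd3 (both 0.994). For Ezh1 it was 0.993 with Hnrnph2, followed by Txnrd3 (0.992) and Dhx35 (0.986). For Suz12 it was 0.996 with Trim24, followed by Pds5b, a cohesin regulator (0.994), and Bclaf3 (0.994). Mtf2 was nearest to Terf1, a telomere protein (0.997), the mitotic motor Kif15 (0.997) and Hnrnpa1 (0.997). Eed was nearest to Wdr92 (0.992), Ifi27 (0.989) and Dguok (0.986), and Phf1 to Dcst2, Tie1 and Gabrr2 (0.995, 0.994 and 0.994). Phf19 was nearest to Mynn (0.990), Tmem223 (0.989) and Sqle (0.987). None of the genes named here was another PRC2 member.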

How the data were processed

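RNA-seq of 12 gonocyte samples (4 stages, 3 each) was analysed. Per the labels' protocols, libraries were made with SMART-seq v4 and TruSeq kits. Per the submitters' processing notes, bcl2fastq 2.20, cutadapt 1.18, HISAT2 2.1.0, featureCounts 1.5.2 and DESeq2 1.26.0 were used with mm10/GRCm38; annotation release and strand setting are not given in the sources used here. The authors deposited a signal per gene, a read count divided by 1 size factor per library. In each library 100% of values were whole multiples of 1 step (tolerance 0.001), which gave back the reads, 40946616 to 51533747 per library.

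Columns were assigned to stages only, because their numbers (1, 3, 4) are not the labels' replicate numbers. Replicates of a stage differed by more than sampling noise (chi-square per gene 5.44 to 19.1). Exon lengths, positions and symbols were taken from GENCODE M21 (GRCm38); 55141 of 55487 identifiers (99.4%) had a symbol.

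Genes with at least 10 normalized counts in 3 libraries (22384) were tested on log2(normalized count + 1) with limma 3.58.1 (lmFit, eBayes with trend, 8 residual degrees of freedom, R 4.3.3), with Benjamini-Hochberg adjusted p under 0.05. Within-library log2 ratios were tested by exact permutation of the F statistic, and p was adjusted over 6 ratios. Alternatives were equal totals, poscounts, median-of-ratios or TMM factors, a pseudocount of 0.1 or 10, no filter or a mean of 100 or more, fits of 2 stages, edgeR 4.0.16 and DESeq2 1.42.0 on the recovered reads, a minimum log2 change of 1, and leaving out each library. The limma fit was tested on simulated counts of 21211 genes, 200 of them changed at P0. For P0 against E16.5 it called 100% of genes changed 4-fold, 86% of those raised 2-fold, 92% of those lowered 2-fold and 0.038% of unchanged genes. The aim of over 90% was first set for every fold size and, after this outcome, kept for 4-fold only. Simulated counts were made and scaled with the same size factors, so the simulated rates leave out error from the choice of scaling. Far fewer genes were changed than in the data, where 95.2% differed among stages. Named genes were the 8 members, the partner, target, proliferation and marker lists, and the 3 genes of highest Pearson's r per member (those of Jarid2 are not reported here); Cuta was added for its overlap with Phf1. Members and lists were chosen with earlier results of these data known.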

Additional observations from a re-analysis of the deposited data

How the results depend on the processing

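The number of members called as differing among stages was 8 under each alternative, and each of the 6 within-library ratios kept its call. Of the members' log2 fold changes under alternatives, 1110 kept direction and call, 58 lost the call, 15 gained it and 17 reversed. With equal library totals the count at P0 against E16.5 was 8 in place of 5. A minimum log2 change of 1 in either direction left 2 members at P0 against E16.5, 2 at P3 against P0, 5 at P0 against E13.5, 1 at P3 against E16.5 and 2 at P3 against E13.5. At E16.5 against E13.5 it left all members but Eed (log2 fold change 0.53) and Jarid2 (-0.68). Without 1 library, counts were 4 to 6 at P0 against E16.5, 8 at E16.5 against E13.5 and 7 to 8 in the other comparisons.

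Reversals came with changed scaling, except for Phf19. Its log2 fold change at P0 against E16.5, 0.03, was -0.0010 with poscounts, -0.020 without E16.5 library 4 and -0.058 without P0 library 1, and ran from -0.058 to 0.115 over the fits without 1 library. Jarid2 in that comparison was 0.029 with median-of-ratios factors and 0.43 with equal totals. At P3 against P0 equal totals gave -0.37 for Ezh2, -0.16 for Ezh1, -0.69 for Eed, -0.16 for Phf19 and -0.17 for Jarid2, and Eed was -0.021 with TMM and -0.29 with median-of-ratios factors. At P0 against E13.5 Eed was 0.030 with median-of-ratios factors and 0.72 with equal totals, and Jarid2 was 0.26 with equal totals. At P3 against E13.5 equal totals gave 0.029 for Eed and 0.094 for Jarid2. Jarid2 at P0 against E16.5 was called by edgeR (adjusted p 0.0376) and DESeq2 (adjusted p 0.0446) but not by limma (0.0615). The cause of these differences was not tested. The numbers in the column heads are not the labels' replicate numbers, and libraries that share one did not deviate together (r of deviations from stage means -0.0356 to 0.0423 over 18 pairs; 9 of 36 best matches were with the own number). A replicate block on these numbers, chosen after seeing the data, left the number of members called at 8 for E16.5 against E13.5 and changed 3 single calls: Phf1 lost its call for P0 against E16.5 (adjusted p 0.0601) and Jarid2 for P3 against E13.5 (0.0521), while Eed gained one for P3 against P0 (0.0308). Low counts limit Phf1 most, with 96 to 102 reads per library at E13.5.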
